A study of Mus musculus with 9 samples.

Results

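The transcripts followed here guide T cells into, through and out of lymphoid tissue, and were measured in regulatory T cells at rest, a CD4 lineage defined by the transcription factor Foxp3. They were chosen by gene symbol as 9 of the 34092 gene rows of a table of read counts: the sphingosine-1-phosphate receptors S1pr1 and S1pr4, the transcription factor Klf2, the hyaluronan receptor Cd44, and the integrin chains Itgae, Itgb7, Itga4, Itgb1 and Itgal. The 3 CNS2KO samples carry Foxp3deltaCNS2-gfp, a Foxp3 allele with a green fluorescent reporter that lacks CNS2, a conserved noncoding element inside the gene. The 6 WT samples carry Foxp3gfp, the reporter allele with CNS2 present, so both genotypes express the reporter. All are primary mouse T cells in the resting state, sorted directly ex vivo. The labels give no age, tissue, strain background or number of animals; the p-values therefore reflect variation among the samples deposited, part of which may be technical. The number 407 occurs in both genotypes and its columns were not used, so that 2 CNS2KO libraries (399 and 408) and 5 WT libraries (398, 402, 405, 1032 and 1037) remained. The column names of WT 1032 and 1037 start with R and those of the other used libraries with YI. These names do not say what the prefixes stand for.

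Naive and resting lymphocytes enter lymph nodes across high endothelial venules and leave them along a gradient of sphingosine-1-phosphate, which S1pr1 senses. Klf2 drives S1pr1 transcription in T cells and is held at high levels in resting cells. Integrins are pairs of an alpha and a beta chain: Itgal pairs with Itgb2 to bind Icam1, Itga4 pairs with Itgb1 to bind Vcam1 or with Itgb7 to bind the gut addressin Madcam1, and Itgae pairs with Itgb7 to bind E-cadherin on epithelium. Cd44 rises on T cells after activation and is used to tell effector from resting regulatory T cells.

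Reads on genes ranged from 21427618 to 21836578 in the CNS2KO libraries and from 16557424 to 19154642 in the WT libraries, and each member had between 411 and 17007 reads in every library. CNS2KO 399 had a read on 14639 genes, the fewest of all used libraries, and CNS2KO 408 on 19206, the most. The WT libraries had a read on 14810 to 18255 genes. The part of this gap in the differences between CNS2KO 399 and 408 was not tested. The 9 of 9 markers of regulatory T cells were read in every library, with a summed level of 7265 to 7273 CPM (reads scaled to library size and composition) in CNS2KO and 6946 to 7970 CPM in WT. Markers of CD8 T and NK cells summed to 69.4 to 87.7 CPM in CNS2KO and 69.8 to 83.3 CPM in WT, and 4 of 10 had over 3 reads in every library, while Ncr1 had 0 throughout. B cell markers summed to 982 to 1159 CPM in CNS2KO and 1067 to 1367 CPM in WT, most of it from Ighm, and 7 of the 9 found had over 3 reads in every library. Myeloid and dendritic cell markers summed to 87.1 to 106 CPM in CNS2KO and 70.3 to 103 CPM in WT, with 4 of 12 over 3 reads in every library. Of 8 endothelial and stromal markers, Kdr, Lyve1 and Col3a1 had 0 reads throughout, and Pecam1, which T cells also express, made up nearly all of the sum. Erythroid markers summed to 156 CPM in CNS2KO 399 and 31.4 CPM in CNS2KO 408, against 6.84 to 27.6 CPM in WT. Single markers for which both CNS2KO libraries lay above every WT library were Gzma (2.39 to 6.29 CPM in CNS2KO, 0 to 1.03 CPM in WT), the myeloid Lyz2 (10.1 to 16.7 CPM in CNS2KO, 0.182 to 9.27 CPM in WT) and 2 of 7 erythroid markers, and 1 of 9 B cell markers, Ebf1, lay below. Of all 14424 genes tested for a genotype difference, 543 lay above and 432 below in this way. The part of other cells in the members' levels was not tested.

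All 9 members passed the filter on low counts, and 0 of 9 differed between the genotypes at a false discovery rate of 0.05 in edgeR's quasi-likelihood test, as did 0.00% of the 14424 genes tested. At an unadjusted p under 0.05 the same test had 361 genes, and DESeq2 called 0 genes with 496 at that limit. The number at that limit depended on CNS2KO 408: without it there were 1676 of 15797 genes, still with 0 called. Every member had an adjusted p of 0.9999. The log2 fold change of CNS2KO over WT was negative in 7 of 9 members (median -0.09), and in 52.6% of all genes tested (median -0.03). At an unadjusted p under 0.05, 1 of 9 members was lower and 0 were higher, against 0.964% lower and 1.54% higher among all genes tested. The groups did not overlap in 2 of 9 members, S1pr1 and Cd44, with CNS2KO the lower in both, against 6.76% of all genes tested (432 lower and 543 higher). In bulk RNA, fewer cells of a type and less RNA per cell cannot be told apart.

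**Figure D1:**
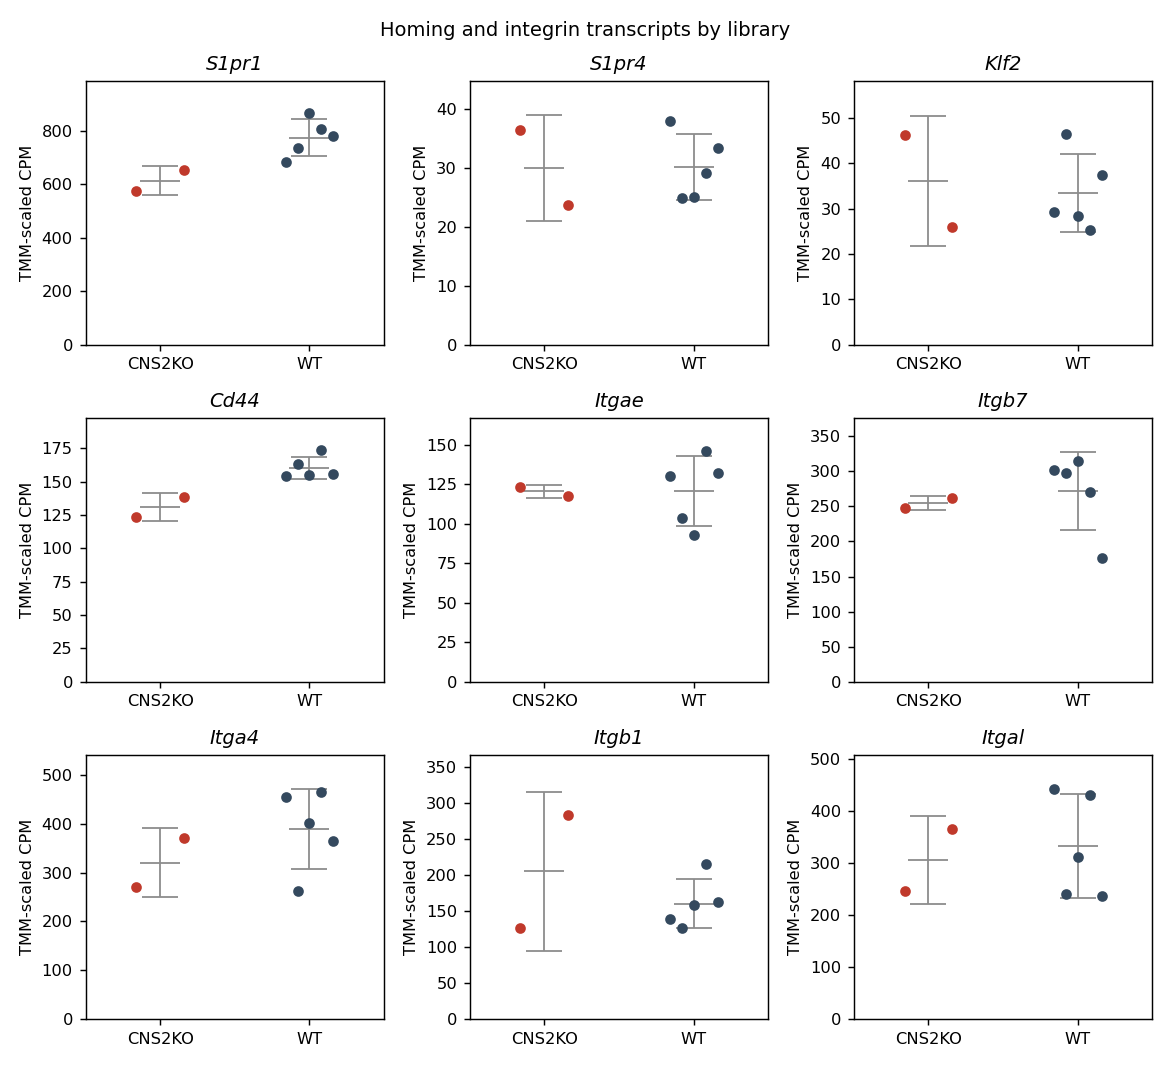
TMM-scaled CPM of each member by library, with CNS2KO in red and WT in dark blue. Each point is a library, middle ticks are group means and bars are 1 SD; S1pr1 and Cd44 are the panels in which both CNS2KO points lie below all 5 WT points.

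The egress receptor S1pr1 was the most abundant member per kb of exon. It stood at 575 and 652 CPM in CNS2KO 399 and 408, against 682, 737, 866, 808 and 782 CPM in WT 398, 402, 405, 1032 and 1037. Both CNS2KO values lay under the lowest WT value, CNS2KO 408 by a small margin below WT 398. The means were 614 ± 54.8 CPM in CNS2KO (SD, n = 2) and 775 ± 69.7 CPM in WT (SD, n = 5), a fold of 0.792 (95% interval 0.630 to 0.994). The log2 fold change was -0.34 (SE 0.15), and edgeR's quasi-likelihood test gave an unadjusted p of 0.0455, rank 323 of 14424, and an adjusted p of 0.9999. For S1pr1 the unadjusted p was 0.0271 in DESeq2 and 0.0704 in edgeR's exact test. The quasi-likelihood test gave 0.0292 without WT 398 and 0.112 without WT 405, so the p lay on either side of 0.05. For S1pr1 this test gave 0.124 with WT 398, 402 and 405 as the only WT libraries. It gave 0.110 with a term for WT 1032 and 1037. The two-sided exact permutation test of its log2 CPM gave p = 0.0476, the smallest that the 21 assignments of 2 and 5 libraries allow. Without CNS2KO 399, which also had the highest erythroid level, the log2 fold change was -0.24 (unadjusted p = 0.226 by edgeR), and without CNS2KO 408 it was -0.44 (unadjusted p = 0.0415 by edgeR).

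S1pr4, a related sphingosine-1-phosphate receptor of leukocytes, did not share this order. It stood at 36.5 and 23.7 CPM in CNS2KO 399 and 408, against 38.05, 24.96, 25.1, 29.1 and 33.4 CPM in WT 398, 402, 405, 1032 and 1037. CNS2KO 399 was close to the highest WT library and CNS2KO 408 lay just under the lowest. Its log2 fold change was -0.0027 with an interval of -0.61 to 0.61, so that folds from 0.654 to 1.52 lay inside it. Without CNS2KO 399 the log2 fold change was -0.34, and without CNS2KO 408 it was 0.27.

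Klf2, the factor upstream of S1pr1 in T cells, stood at 46.2 and 25.9 CPM in CNS2KO 399 and 408, against 29.3, 46.5, 28.4, 25.4 and 37.4 CPM in WT 398, 402, 405, 1032 and 1037. Each CNS2KO library lay inside the WT range, one near its upper end and one near its lower end. The fit gave Klf2 a log2 fold change of 0.11, with SE 0.31 and an interval of -0.57 to 0.79. This was -0.36 without CNS2KO 399 and 0.47 without CNS2KO 408. In CNS2KO 399 the level of Klf2 was 0.50 above the WT mean on the log2 scale, while S1pr1 was at -0.43. Over the 7 libraries Pearson's r of Klf2 and S1pr1 was -0.39 (exact permutation p = 0.376, adjusted p = 0.603) and Spearman's rho -0.36 (exact permutation p = 0.444, adjusted p = 0.711), with p-values adjusted over 8 member pairs. Without WT 402 and CNS2KO 399, the libraries farthest from the Klf2 median, r was 0.17.

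Cd44 had the second of the 2 separations. It stood at 124 and 139 CPM in CNS2KO 399 and 408, against 155, 164, 155, 174 and 156 CPM in WT 398, 402, 405, 1032 and 1037. The WT libraries were close together, with a coefficient of variation of 5.18%, and 0.465% of tested genes varied as little or less. The means were 131 ± 10.5 CPM in CNS2KO (SD, n = 2) and 161 ± 8.32 CPM in WT (SD, n = 5). This is a log2 fold change of -0.29 (SE 0.16; 95% interval from -0.65 to 0.07), with an unadjusted p of 0.105 and an adjusted p of 0.9999 in edgeR's quasi-likelihood test, and the two-sided exact permutation p was 0.0476, again the smallest possible. Without CNS2KO 399 the log2 fold change was -0.21, and without CNS2KO 408 it was -0.38. The summed level of 15 markers of effector regulatory T cells, a list without Cd44, was 1473 and 1461 CPM in CNS2KO 399 and 408, inside the WT range of 1423 to 1943 CPM. The top of that range was WT 1037, and the next WT library, 1032, stood at 1523 CPM. Most of the sum came from Tnfrsf4, Icos, Tnfrsf9, Gata3 and Lgals1, so it says little about the less expressed markers. Of these 15, 0 lay above every WT library in both CNS2KO libraries, 2 lay below, as Cd44 did, and the rest overlapped. Of the 14424 genes tested, 543 lay above and 432 below. The first of the 2, the calcium-binding S100a6, stood at 23.9 to 32.8 CPM in CNS2KO and 40.2 to 80.5 CPM in WT. The second, the inhibitory receptor Tigit, stood at 35.3 to 40.6 CPM in CNS2KO and 40.9 to 124 CPM in WT, a small margin. The part of S100a6 and Tigit in the Cd44 values was not tested. Because S1pr1 and Cd44 both set the genotypes apart, no correlation over all libraries is given for this pair. It is still counted among the 8 member pairs over which p-values were adjusted. Within the 5 WT libraries Pearson's r of S1pr1 and Cd44 was 0.17, given without a test.

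**Figure D2:**
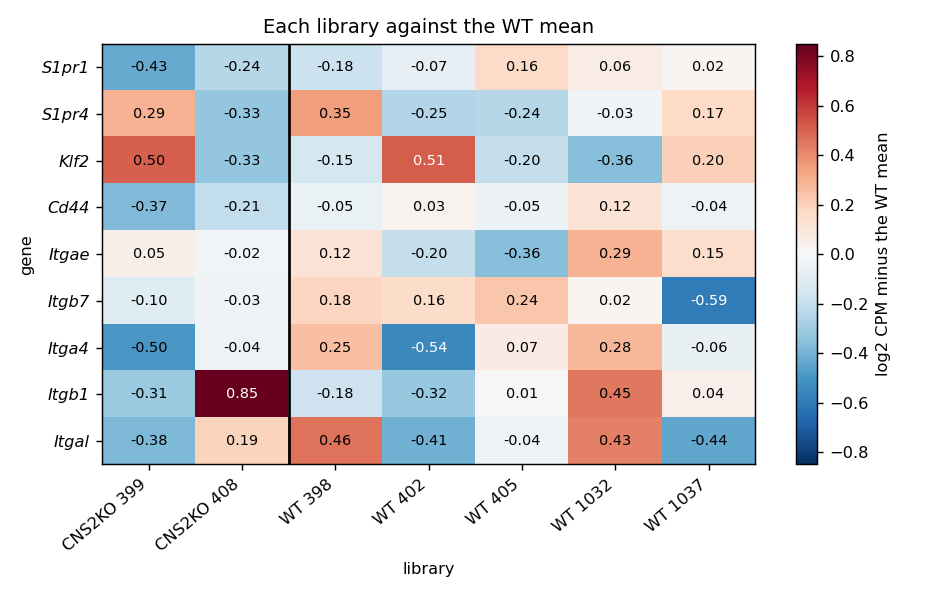
Log2 CPM of each member in each library minus the mean of the 5 WT libraries, with CNS2KO left of the black line. S1pr1, Cd44, Itgb7 and Itga4 are negative in both CNS2KO columns, while Klf2, S1pr4, Itgae, Itgb1 and Itgal have opposite signs in these columns.

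Among the integrins, Itgae (CD103), the alpha chain that binds E-cadherin, had the closest group means. It stood at 124 and 118 CPM in CNS2KO 399 and 408, against 130, 103, 92.8, 146 and 132 CPM in WT 398, 402, 405, 1032 and 1037. The means were 121 ± 4.25 CPM in CNS2KO (SD, n = 2) and 121 ± 22.04 CPM in WT (SD, n = 5), with both CNS2KO libraries well inside the WT range. Its log2 fold change was -0.0045 (SE 0.21), and the interval held folds from 0.727 to 1.37, so differences inside that range are not excluded.

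Itgb7, the beta chain that pairs with Itgae and with Itga4, stood at 248 and 262 CPM in CNS2KO 399 and 408, against 302, 297, 314, 270 and 176 CPM in WT 398, 402, 405, 1032 and 1037. WT 1037 stood well below the other 4 WT libraries, and both CNS2KO libraries lay between it and the rest. Without WT 1037 the log2 fold change was -0.22 (unadjusted p = 0.211 by edgeR). With WT 398, 402 and 405 as the only WT libraries it was -0.26 (unadjusted p = 0.185 by edgeR). For Itgb7 the fit gave -0.09 on the log2 scale, with SE 0.22 and an interval of -0.57 to 0.38. Against its partner Itgae, Pearson's r was -0.48 across the 7 libraries (exact permutation p = 0.288, adjusted p = 0.603), Spearman's rho was -0.50 (exact permutation p = 0.267, adjusted p = 0.711), and r was -0.01 without WT 405 and WT 402.

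Itga4, the alpha chain shared by the Vcam1 and Madcam1 receptors, stood at 270.5 and 371 CPM in CNS2KO 399 and 408, against 455, 262, 401, 465 and 365 CPM in WT 398, 402, 405, 1032 and 1037. CNS2KO 399 was near the lowest WT library, and the groups overlapped. For Itga4 the fit gave -0.28 on the log2 scale, with SE 0.23 and an interval of -0.78 to 0.22; it gave -0.07 without CNS2KO 399 and -0.54 without CNS2KO 408. With its partners, Pearson's r across the 7 libraries was 0.11 with Itgb7 (exact permutation p = 0.815, adjusted p = 0.834) and 0.49 with Itgb1 (exact permutation p = 0.241, adjusted p = 0.603). Spearman's rho was 0.39 with Itgb7 (exact permutation p = 0.396, adjusted p = 0.711) and 0.57 with Itgb1 (exact permutation p = 0.200, adjusted p = 0.711). Without WT 402 and CNS2KO 399, r was 0.59 with Itgb7 and -0.27 with Itgb1.

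Itgb1, the beta chain of the Vcam1 receptor and of many matrix receptors, showed the widest gap between the CNS2KO libraries. It stood at 127 and 283 CPM in CNS2KO 399 and 408, against 139, 126, 158, 214 and 162 CPM in WT 398, 402, 405, 1032 and 1037. CNS2KO 408 was above every WT library and CNS2KO 399 was close to the lowest. The CNS2KO libraries differed by 1.16 on the log2 scale, against at most 0.77 between any of the 10 pairs of WT libraries, and 23.3% of tested genes had a larger gap between the CNS2KO libraries. For Itgb1 the fit gave 0.36 on the log2 scale, with SE 0.28 and an interval of -0.27 to 0.98; it gave 0.83 without CNS2KO 399 (edgeR's unadjusted p = 0.00915, adjusted p = 0.9999) and -0.35 without CNS2KO 408 (unadjusted p = 0.268, adjusted p = 0.665).

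Itgal, the alpha chain of the Icam1 receptor LFA-1, stood at 247 and 366 CPM in CNS2KO 399 and 408, against 442, 241, 312, 432 and 236 CPM in WT 398, 402, 405, 1032 and 1037. It varied most among the WT libraries, with a coefficient of variation of 29.99%, and the CNS2KO libraries lay inside that range. For Itgal the fit gave -0.12 on the log2 scale, with SE 0.28 and an interval of -0.72 to 0.49; it gave 0.14 without CNS2KO 399 and -0.44 without CNS2KO 408. Its partner Itgb2 stood at 689 and 621 CPM in CNS2KO 399 and 408 and at 643 to 885 CPM in WT, with a log2 fold change of -0.23 (SE 0.16).

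**Figure D3:**
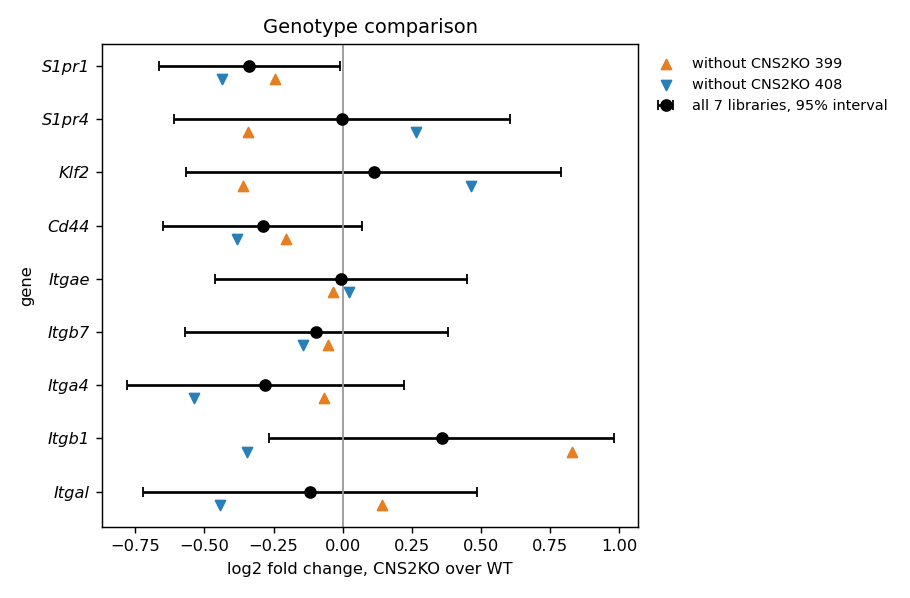
Log2 fold change of CNS2KO over WT for each member (black points, edgeR; bars are 95% intervals) with the values after leaving out CNS2KO 399 (orange) or CNS2KO 408 (blue). The interval of S1pr1 ends just short of 0, the other 8 include 0, and the signs of S1pr4, Klf2, Itgae, Itgb1 and Itgal depend on which CNS2KO library is kept.

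Promoter sequences were looked up because Klf factors, Klf2 among them, bind CACCC boxes. The RefSeq table (build GRCm38.p6) held promoters for 6 of the 9 members, and none for S1pr1, Itgae and Itgal. The promoter of S1pr1, the Klf2 target among the members, was therefore not searched. In the 6, the 250 bases before the start of transcription were searched for CACCC on both strands, the reverse being GGGTG. The motif was in 5 of these 6 and in 52.0% of 32851 promoters of that length, and 21.1% held at least 2 matches. They are printed for 3 members to show both extremes, Itgb7 and Itga4 with 4 matches each and Cd44 with 0, with matches in capitals. They lie at chr15:102231936-102232185 (minus strand), chr2:79255176-79255425 (plus strand) and chr2:102901666-102901915 (minus strand).
Itgb7: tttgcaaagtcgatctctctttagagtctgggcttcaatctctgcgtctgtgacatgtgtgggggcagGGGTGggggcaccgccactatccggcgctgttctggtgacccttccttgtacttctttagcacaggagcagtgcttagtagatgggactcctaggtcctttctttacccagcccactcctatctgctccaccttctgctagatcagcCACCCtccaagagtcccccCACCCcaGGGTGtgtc
Itga4: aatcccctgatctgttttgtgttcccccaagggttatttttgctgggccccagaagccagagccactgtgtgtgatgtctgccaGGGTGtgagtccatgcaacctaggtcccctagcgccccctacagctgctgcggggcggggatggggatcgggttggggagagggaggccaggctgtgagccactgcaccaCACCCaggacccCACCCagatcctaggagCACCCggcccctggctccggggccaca
Cd44: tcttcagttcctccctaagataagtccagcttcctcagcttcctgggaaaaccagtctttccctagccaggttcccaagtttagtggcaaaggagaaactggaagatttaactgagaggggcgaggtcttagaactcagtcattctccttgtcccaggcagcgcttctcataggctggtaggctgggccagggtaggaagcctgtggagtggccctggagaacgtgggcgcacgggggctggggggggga
A match describes letters and not binding. Itgb7 and Itga4, alike in this count, had log2 fold changes of -0.09 and -0.28, and Cd44, with none, had -0.29. Neither these genes nor Klf2 passed the false discovery rate, so the values cannot tell whether the motif matters.

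Levels were then compared between members per kb of annotated exon. S1pr1 stood first, at 201 ± 17.98 CPM per kb in CNS2KO (SD, n = 2) and 254 ± 22.9 CPM per kb in WT (SD, n = 5), above Itgb7 in all 7 libraries with no overlap of the WT ranges. Itgb7 followed at 92.0 ± 3.49 CPM per kb in CNS2KO and 98.2 ± 20.2 in WT. Itgal, at 46.7 ± 12.9 CPM per kb in CNS2KO and 50.6 ± 15.2 in WT, and Itgb1, at 50.2 ± 27.1 and 39.1 ± 8.26, overlapped in their WT ranges. Itga4, Itgae and Cd44 formed a run of overlapping neighbours at WT means of 27.9, 26.4 and 23.7 CPM per kb. Klf2, at 19.5 ± 7.77 CPM per kb in CNS2KO and 18.1 ± 4.64 in WT, and S1pr4, at 12.6 ± 3.78 and 12.6 ± 2.35, had the lowest WT means. In CNS2KO, Cd44 at 19.4 ± 1.56 CPM per kb (SD, n = 2) was level with Klf2. From Itgb7 downward every pair of neighbours in the WT order overlapped in the WT ranges. This WT order was the same with the length of the longest annotated transcript, a setting chosen after seeing the data.

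**Figure D4:**
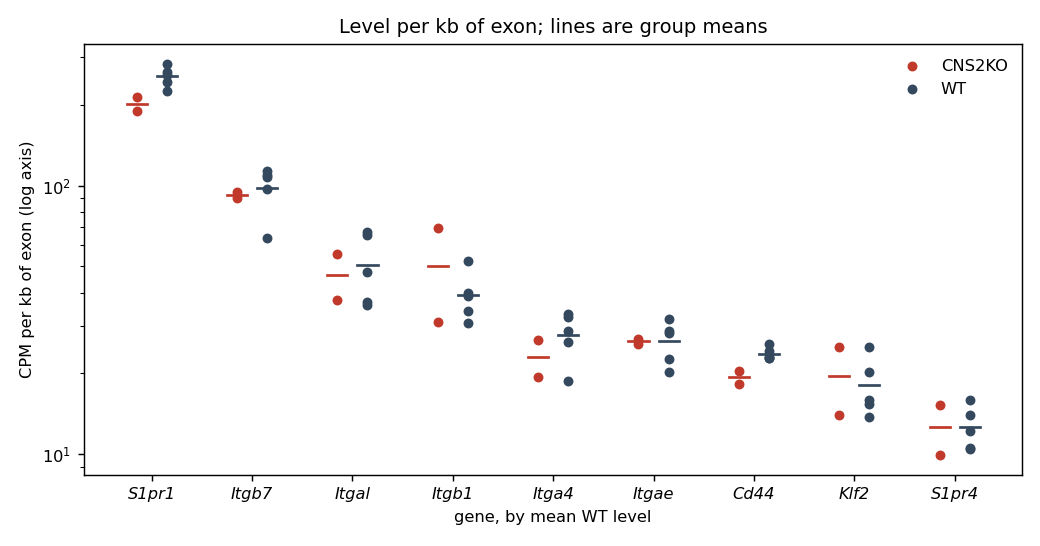
CPM per kb of exon on a log axis for each member, ordered by mean WT level, with CNS2KO (red) left of WT (dark blue). Points are libraries and lines are group means; S1pr1 stands apart at the top, and Klf2 and S1pr4 have the lowest WT means.

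Related genes outside the 9 were described by 6 lists, of which 81 genes were tested and 0 passed a false discovery rate of 0.05 in edgeR's quasi-likelihood test, with 1 at an unadjusted p under 0.05. That number changed when either CNS2KO library was left out, as did the number over all genes tested. In the list of sphingosine-1-phosphate signalling and egress, 11 of 16 genes were tested, with 5 positive and 6 negative log2 fold changes (median -0.03, or 0.070 without CNS2KO 399 and -0.14 without CNS2KO 408). In 2 of the 11 both CNS2KO libraries exceeded all WT libraries, against 543 of the 14424 genes tested. The first was Cd69, which pulls S1pr1 off the cell surface, at 360.5 and 383 CPM in CNS2KO 399 and 408, against 263 to 355 CPM in WT (log2 fold change 0.23, SE 0.17, unadjusted p = 0.185 by edgeR). The second was the actin regulator Coro1a, at 2190.3 and 1895 CPM in CNS2KO 399 and 408, against 1737 to 1863 CPM in WT (log2 fold change 0.17, SE 0.12). Dock2, an activator of Rac needed for lymphocyte migration, stood at -0.35 (SE 0.23), with -0.10 without CNS2KO 399 and -0.65 without CNS2KO 408.

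Of 11 listed factors of the Klf family 10 were tested, with 1 positive and 9 negative log2 fold changes (median -0.29). The most expressed were Klf13 at 0.02 (SE 0.14) and Klf6, an early response factor, at -0.33 (SE 0.20), where CNS2KO 399 and 408 stood at 244 and 182 CPM, against 236 to 335 CPM in WT. The median of the Klf list was -0.23 without CNS2KO 399 and -0.52 without CNS2KO 408. Of 21 other integrin chains 14 were tested, with 2 positive and 12 negative log2 fold changes (median -0.38). The laminin receptor chain Itga6 stood at -0.10 (SE 0.21), Itgav at -0.46 (SE 0.28) and the fibronectin receptor chain Itga5 at 0.95 (SE 0.64). Without CNS2KO 399 the values were -0.065 for Itgav and 0.37 for Itga5, and without CNS2KO 408 they were -1.01 and 1.36. The median of this list was 0.16 without CNS2KO 399 and -1.01 without CNS2KO 408, so its sign depended on which CNS2KO library was kept.

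The 23 tested genes of integrin activation and adaptors had 9 positive and 14 negative log2 fold changes (median -0.13). The adaptor Skap1 stood at -0.06 (SE 0.18), the Rap1 effector Rassf5 at -0.17 (SE 0.17), the small GTPase Rap1a at 0.38 (SE 0.19) and the focal adhesion kinase Ptk2 at -0.79 (SE 0.53). Rap1a and Ptk2 stood at 0.58 and -0.43 without CNS2KO 399, and at 0.16 and -1.28 without CNS2KO 408. The 10 tested genes of selectin ligand synthesis had 4 positive and 6 negative log2 fold changes (median -0.08, or 0.0084 without CNS2KO 399 and -0.33 without CNS2KO 408), with the P-selectin ligand Selplg at 0.02 (SE 0.19), the sialomucin Spn at 0.03 (SE 0.18) and the sialyltransferase St3gal4 at 0.53 (SE 0.37). Fut7, the fucosyltransferase that builds P- and E-selectin ligands, is named because of its values, and stood at 2.18 and 2.15 CPM in CNS2KO 399 and 408, against 2.45 to 4.39 CPM in WT (log2 fold change -0.54, SE 0.73). The mucin-like Cd24a, at 0 and 5.60 CPM in CNS2KO 399 and 408, against 5.45 to 10.1 CPM in WT, had an exact permutation p of 0.0952. Its log2 fold change was -1.35 (SE 1.14) in edgeR's quasi-likelihood fit and -4.26 in limma-voom. The edgeR value was -0.35 without CNS2KO 399, and -10.05 without CNS2KO 408, when only the CNS2KO library at 0 CPM remained. The 13 tested ligands and partners of integrins and Cd44 had 6 positive and 7 negative log2 fold changes (median -0.06), with the membrane linker moesin (Msn) at -0.14 (SE 0.16) and Cd47 at -0.16 (SE 0.15). The tetraspanin Cd81 stood at 276 and 231 CPM in CNS2KO 399 and 408, against 166 to 233 CPM in WT. Its log2 fold change was 0.41 (SE 0.18), and its unadjusted p of 0.0495 in edgeR's quasi-likelihood test was the one below 0.05 in these lists.

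**Figure D5:**
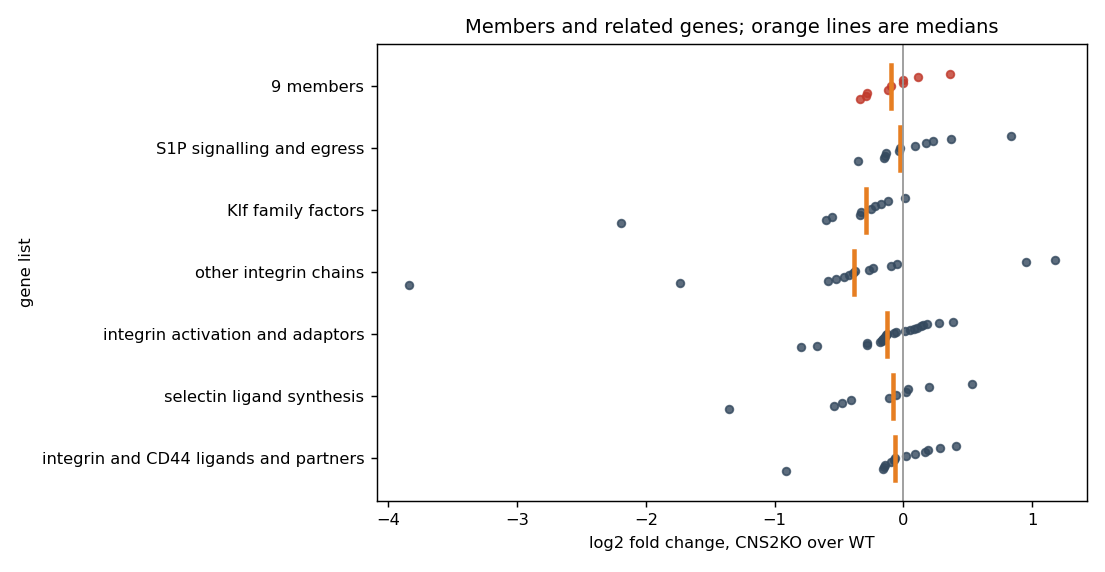
Log2 fold change of CNS2KO over WT for the 9 members (red) and the tested genes of 6 related lists (dark blue), with each median as an orange line. Medians run from -0.38 for the other integrin chains to -0.03 for the egress list.

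The genes whose levels ran most like 4 members were searched among 4856 genes with a mean log2 CPM of 5 or more, by Pearson's r over 7 libraries and as a description only. For S1pr1 they were Fam120a (r = 0.98), Trim26 (0.96) and Gfm2 (0.95), and 8 genes exceeded 0.9. For Klf2 they were the dynein light chain Dynll1 (0.97), Mob2 (0.97) and the dynactin subunit Dctn3 (0.97), and 47 genes exceeded 0.9. For Cd44 they were Pdxdc1 (0.98), the transcription factor Atf2 (0.98) and the kinase Mknk1 (0.98), with 26 genes above 0.9. For Itgae they were Hnrnpab (0.97), Spn (0.95) and the farnesyltransferase subunit Fntb (0.92), with 6 genes above 0.9. The genes named for S1pr1 had log2 fold changes of -0.31, -0.24 and -0.34, and those named for Cd44 had -0.70, -0.36 and -0.30. S1pr1 and Cd44 themselves separated the genotypes. For these members, r over 7 libraries therefore cannot tell a shared genotype offset from likeness within a genotype. The other member pairs compared were Klf2 with S1pr4 (r = 0.26, exact permutation p = 0.533, adjusted p = 0.710), S1pr1 with S1pr4 (r = -0.39, exact permutation p = 0.377, adjusted p = 0.603) and Cd44 with Itgae (r = 0.10, exact permutation p = 0.834, adjusted p = 0.834). Their Spearman's rho was 0.21, -0.18 and 0.29 (exact permutation p = 0.662, 0.713 and 0.556, adjusted p = 0.713 for each), and r without the farthest libraries was 0.53, 0.18 and -0.23.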

How the data were processed

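RNA of sorted regulatory T cells was amplified by SMARTer and sequenced on an Ion Proton, per the labels' protocols. STAR, BWA, edgeR and the build mm9 are listed, with no role, per the submitters' processing notes. Annotation, read counter and strand handling are not given in the sources used here, so reads from a gene and an antisense partner cannot be told apart. Tables deposited by the authors hold raw counts by gene symbol, log2 values whose scaling was not stated, and a table of signed values with no named groups, which was not used here.

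Of 9 columns per table, 2 share the number 407 and hold identical values in all 34097 rows; both were left out, since their genotype could not be told. The 5 summary rows of the counter were left out of library sizes; reads on genes were 22.0 to 23.7% of each used column and reads on no feature 47.7 to 54.3%. All 21 pairs of used libraries differed by more than sampling noise (lowest chi-square per degree of freedom 29.9).

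Counts were tested in R 4.3.3 with edgeR 4.0.16 (filterByExpr, TMM, two-sided quasi-likelihood test, Benjamini-Hochberg over all genes). Log2 CPM used a prior count of 2; each SE is the log2 fold change divided by the root of F. The fit was also run on counts simulated with dispersions estimated from these libraries. The outcome of that run is not given here and is not used as support. A floor of 3 counts is 0.142 to 0.182 CPM and covers counting error only. Exon lengths came from GENCODE M21 (GRCm38), not the authors' build. The members and lists were chosen with earlier results of these data known. Named genes were the 9 members; per list the 2 most expressed and the smallest p in each direction, as none passed; and the 3 genes most like S1pr1, Klf2, Cd44 and Itgae, leaving out members and predicted or clone names. Fut7 and the marker genes were named outside that rule. Alternatives were DESeq2 1.42.0, limma-voom (limma 3.58.1), the exact test of edgeR, upper-quartile or RLE scaling, other filters, 3-digit WT numbers only, a term for 1032 and 1037, the authors' log2 values, a prior count of 0.5, a false discovery rate of 0.1 and leaving out each library in turn. The lone CNS2KO library that then remained was assumed to vary like the WT libraries. Dixon's criterion was applied to the 5 WT values of 29 named genes, on CPM, where 0 passed it, and on log2 CPM, where 1 did.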

Additional observations from a re-analysis of the deposited data

Results flagged for a closer look

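Among the 5 WT libraries, the log2 CPM of Itgb7 in WT 1037 was 7.46, and the nearest WT library was at 8.08; this gap was 0.735 of the WT range, past Dixon's critical value of 0.71. On the CPM scale the same gap did not pass. Chance gives such a gap in about 1 in 20 groups, and 58 checks were made.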

How the results depend on the processing

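No paired analysis was possible because the genotypes share a single number, 407, whose columns were left out. Leaving low counts unfiltered called 8 genes, none of them a member, for a cause that was not tested; every other alternative run called 0. The 9 members stayed uncalled under all alternatives run, and S1pr1 (-0.44 to -0.24), Cd44 (-0.38 to -0.21), Itgb7 (-0.26 to -0.04) and Itga4 (-0.54 to -0.07) kept a negative log2 fold change in all 17. With 1 library left out, the sign turned, with the cause not tested, for S1pr4 (-0.34 to 0.27), Klf2 (-0.36 to 0.47), Itgae (-0.086 to 0.073), Itgb1 (-0.35 to 0.83), Itgal (-0.44 to 0.14), Itga6 (-0.42 to 0.16), Selplg (-0.30 to 0.28), Klf13 (-0.013 to 0.054), Skap1 (-0.21 to 0.076) and Spn (-0.017 to 0.086). Pearson's r likewise ranged from -0.61 to 0.025 for Klf2 and S1pr1, from -0.0011 to 0.64 for Klf2 and S1pr4, from -0.028 to 0.38 for Itga4 and Itgb7, and from -0.32 to 0.28 for Cd44 and Itgae. The log2 ratio difference ranged from -0.88 to 0.21 for Itgb7 over Itgb1 and from -0.72 to 0.083 for S1pr1 over S1pr4. With WT numbers of 3 digits and with a term for 1032 and 1037, S1pr4 was 0.034 and 0.033, Itgae 0.15 and 0.15, and Klf13 -0.020 and -0.020. In these settings S1pr1 was -0.31 and -0.31, Itgb7 -0.26 and -0.26, and Itgb1 0.54 and 0.54. The filter at 10 CPM gave S1pr4 0.0023, limma-voom gave Itgae 0.016 and Selplg -0.0024, and limma on the authors' log2 values gave Itgae 0.0175. With 2 CNS2KO libraries, the intervals of the members span folds from 0.582 to 1.97, which limits what could be detected.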

Other observations

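Ratios of 2 members within a library do not depend on library scaling; these were chosen after seeing the data. Per kb of exon, Itgb7 stood at 2.89 and 1.36 times the level of Itgb1 in CNS2KO 399 and 408, against 3.21, 3.48, 2.94, 1.86 and 1.61 times in WT 398, 402, 405, 1032 and 1037. WT 1032 and 1037, whose column names start with R, had the lowest WT ratios. Both CNS2KO ratios lay below those of WT 398, 402 and 405, CNS2KO 399 by a small margin. The part of the column prefix in this was not tested. The CNS2KO minus WT difference of the log2 ratio was -0.33 (two-sided exact permutation p = 0.476), and it ranged from -0.88 without CNS2KO 399 to 0.21 without CNS2KO 408. S1pr1 stood at 12.4 and 21.6 times the level of S1pr4 in CNS2KO 399 and 408, against 14.0, 23.1, 27.0, 21.7 and 18.4 times in WT 398, 402, 405, 1032 and 1037. The difference of this log2 ratio was -0.32 (two-sided exact permutation p = 0.381), and it ranged from -0.72 without CNS2KO 408 to 0.08 without CNS2KO 399.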
